A study of Mus musculus with 6 samples.

Results

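The 3 PBS-treated CT26.WT tumors form the control group of a study of interferon-γ in colorectal cancer, and their transcriptome is described here without reference to the treated tumors. Counts per gene were scaled to the total of each tumor as CPM, which are counts per 1e6 counts, and a gene was taken as expressed where it reached 1 CPM in all 3 tumors. This held for 13467 of the 55487 genes in the table, or 24.3%, and for 12077 of the 21974 protein-coding genes, or 55.0%. The share of protein-coding genes is the base for the counts of expressed genes by list below. The 3 control tumors are 3 of the 6 samples of the series, the other 3 being tumors of mice that received interferon-γ. CT26.WT is a colon carcinoma line raised with a chemical carcinogen in the BALB/c strain, and is known as a poorly differentiated tumor that lacks the Cdkn2a locus. Cells of this line, wild type by their label, were implanted under the skin of the upper right back of immunocompetent BALB/c mice, 1000000 cells to a mouse. The mice were 4 weeks old when bought and are described as male, and the controls received 100 µL of PBS into the tail vein. All cells of the lump were sequenced together, so that cancer cells, host stroma, infiltrating leukocytes and any skin or body-wall muscle taken with the tumor contributed to each library. The labels number the tumors 1 to 3 without naming an animal, and the standard deviations (SD, n = 3 after every ± sign) measure the spread between these samples.

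A tumor grown from a cell line in a host of the same strain holds carcinoma cells that no longer form colonic epithelium, fibroblasts and vessels that the host supplies, and immune cells that enter from the blood. Carcinoma cells can exchange an epithelial program of keratins, E-cadherin and claudins for a mesenchymal program of vimentin, N-cadherin and matrix genes. Macrophages are common leukocytes of CT26 tumors, and T cells and natural killer cells are the lymphocytes on which immune therapy of this model acts. In bulk samples, fewer cells of a type and less RNA per cell cannot be told apart.

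The libraries held 15759300, 17382589 and 17559680 counts in tumors 1, 2 and 3, so that 1 CPM stood for 15.8 to 17.6 counts. Where a gene had no count in tumor 1, the shallowest, its level could still be as high as 0.190 CPM by counting error alone. The limit was reached by 14080, 14047 and 14040 genes in the single tumors, and 30799 genes had no count in any. Among the 10111 genes with a mean of 10 CPM or more, tumors 1, 2 and 3 were the highest in 30.8, 41.0 and 28.2% and the lowest in 26.9, 31.2 and 41.9%, which is the base for counts of genes by tumor. Raw counts are not scaled for these totals. Genes outside the expressed set took at most 0.321% of a library. Log2 CPM correlated between pairs of tumors with Pearson's r from 0.986 to 0.989 across the expressed genes, which are not independent replicates, and the chi-square per gene between libraries was 11.8 to 16.9, above the value near 1 of a library sequenced again.

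The libraries differed in genes of the sex chromosomes. Xist, the noncoding RNA that coats the inactive X chromosome of female cells, had 1 count in tumor 1, 5725 in tumor 2 and 3442 in tumor 3. The Y-linked genes Ddx3y, Eif2s3y, Kdm5d and Uty had 9, 2, 2 and 1 counts in tumor 1 and 0 in tumors 2 and 3. These counts differed between libraries that the methods describe as all from male mice, and in tumor 1 each of the Y-linked genes stayed below 1 CPM. The Y chromosome as a whole took 0.0028, 0.0029 and 0.0026% of counts, nearly all in Gm47283, its 1 expressed gene, with 414, 488 and 446 counts. The X-linked partners of these genes differed by less, with Ddx3x at 543, 554 and 535 CPM, Kdm5c at 108, 132 and 112, Eif2s3x at 26.7, 30.8 and 30.5 and Kdm6a at 47.1, 50.7 and 46.4 CPM, all highest in tumor 2. Whether cancer or host cells gave these counts was not tested. Xist is not among the expressed genes because of tumor 1.

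Sequences around the start sites of 5 genes are shown first, since they stand for the gene classes that organise the rest. They are RefSeq windows of build GRCm38.p6, the patch series of mm10, from 45 bases before to 15 bases from the annotated start, written on the strand of the gene. Capitals mark TATAAA where it began 20 to 40 bases before the start on that strand, and in Rpl35 a run of C and T at the start. Rpl35 encodes a protein of the large ribosomal subunit, Vim the filament protein of mesenchymal cells, Krt20 a keratin of intestinal epithelium, Ccl8 a chemokine and Fabp1 a fatty acid carrier of mature enterocytes.
Rpl35 (chr2:39005117-39005176, minus strand, 1460.4 TPM): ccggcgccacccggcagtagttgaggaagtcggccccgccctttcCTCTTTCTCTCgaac
Vim (chr2:13574266-13574325, plus strand, 3180.5 TPM): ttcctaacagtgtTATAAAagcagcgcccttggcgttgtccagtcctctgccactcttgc
Krt20 (chr11:99438139-99438198, minus strand, 251 TPM): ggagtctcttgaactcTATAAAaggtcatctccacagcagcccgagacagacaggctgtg
Ccl8 (chr11:82115140-82115199, plus strand, 1397 TPM): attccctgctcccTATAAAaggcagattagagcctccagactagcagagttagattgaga
Fabp1 (chr6:71199834-71199893, plus strand, 0 TPM): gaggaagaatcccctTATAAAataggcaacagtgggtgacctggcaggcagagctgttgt
The values in brackets are mean TPM, counts divided by the summed exon length of the gene and scaled to the same sum in each tumor. Levels of different genes are compared per length on this scale, and rank orders and sums in CPM, which also rise with gene length, are named as such.

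These windows were matched by symbol for 16782 of 21938 protein-coding symbols. TATAAA in the stated position was found in 119 of 9602 expressed genes with a window, or 1.24%, in 358 of 7180 genes that were not expressed, or 4.99%, and in 2.84% of all windows. Among the 1000 highest genes by TPM the share was 2.5%, and among the 100 highest it was 5.0%, close to that of the genes that were not expressed. The CpG content also differed. The ratio of observed to chance CpG over the 300 bases was above 0.6 in 71.0% of expressed genes, in 19.3% of genes that were not expressed and in 10.2% of genes with 0 counts in all 3 tumors. The median GC content of the windows was 60.7% in expressed and 49.7% in other genes. A run of at least 5 pyrimidines from 1 of the first 3 transcribed bases stood in 21 of 65 ribosomal protein genes with a window, or 32.3%, and in 9.81% of all windows. All 5 printed sequences were chosen because they hold a match.

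The expressed genes spread over 4 orders of magnitude, with most genes in the middle and most counts in few genes. From 1 to 10 CPM lay 3356 genes with 1.48% of all counts, from 10 to 100 CPM 7651 genes with 32.3%, from 100 to 1000 CPM 2388 genes with 51.2%, and above 1000 CPM 72 genes with 14.7%. The 10 most abundant genes took 5.37 ± 0.070% of counts, the 100 most abundant 17.2 ± 0.65% and the 1000 most abundant 46.5 ± 0.64%. No single gene dominated a library. At the limit itself Clip3, Eef1a2 and Bik were just inside with 16 counts in tumor 1, or 1.02 CPM, and Cyp27b1, Rilp and Strip2 just outside with 17 counts in tumor 2, or 0.978 CPM.

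By counts, the most abundant gene was Eef1a1, the translation elongation factor that carries aminoacyl-tRNA to the ribosome, with 11708, 11466 and 11895 CPM in tumors 1, 2 and 3. It was followed by mt-Co1, a mitochondrially encoded subunit of cytochrome oxidase, with 10310, 10911 and 11426 CPM, and by Vim with 5252, 4830 and 5186 CPM. mt-Cytb, Eef2, Lgals1, Actb, Spp1, Hsp90ab1 and Fn1 completed the 10 highest. The next 10 were Fth1, mt-Nd1, Col1a2, the ribosomal RNA gene CT010467.1, B2m, mt-Nd5, Rpl4, Emp1, Anxa2 and Pkm. Genes of the mesenchymal cytoskeleton and matrix (Vim, Lgals1, Spp1, Fn1, Col1a2, Anxa2) thus stood beside genes of translation and respiration.

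Per length the order differed. mt-Co1 was first with 20892 ± 1153 TPM, before Eef1a1 with 13905 ± 244, mt-Cytb with 13122 ± 677 and Lgals1 with 11940 ± 1659. Lgals1 was above mt-Cytb in tumor 1, with 13854 against 12350 TPM, and below it in tumors 2 and 3, so their order was not fixed. Rplp1, at 10988 ± 1481 TPM, was below Lgals1 in each tumor. Next came B2m, the light chain of MHC class I, with 7703 ± 571 TPM, and Spp1, the secreted matrix protein osteopontin, held rank 10 with 6143 ± 721 TPM. Of the 20 highest genes 8 were shared between the lists by counts and per length, and of the 100 highest 58. The list per length also held Rps18-ps6, Rps15, Gm15772, mt-Nd1, mt-Nd2, Rpl41, Gm12191, Lyz2, Gm9794 and Actb, and the very short entries Gm23935 with 57 exon bases, Gm10736 with 78 and Gm14303 with 171. The short entries varied most among the 20, with 7570 ± 3120 TPM for Gm23935.

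**Figure D1:**
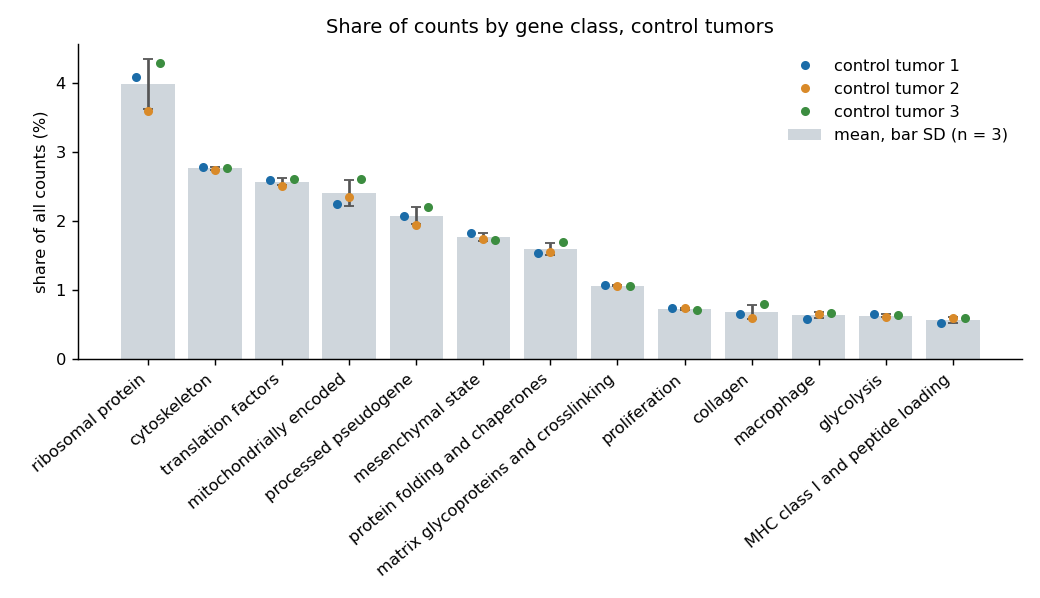
Share of all counts in percent taken by 13 gene classes in the 3 control tumors, with points for tumors, grey bars for means and error bars for SD. Ribosomal protein genes took the largest share, lowest in tumor 2 with 3.59%, and cytoskeletal genes were nearly even between tumors.

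Long noncoding RNAs were led by the snoRNA host gene Snhg8 with 344 ± 56 TPM and by Malat1, a nuclear RNA, with 175 ± 52 TPM. Malat1 was highest in tumor 2, with 6119, 9137 and 5558 counts.

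Among gene classes, the 82 expressed ribosomal protein genes took 4.09, 3.59 and 4.29% of counts in tumors 1, 2 and 3. Tumor 2 was the lowest in 59 of them, against 31.2% of all genes, and none differed 2-fold between tumors. Cytoskeletal genes took 2.76 ± 0.017%, translation factors 2.57 ± 0.050%, mitochondrially encoded genes 2.40 ± 0.19% and chaperones 1.59 ± 0.087%. Actb stood at 3985 ± 169.8 TPM, Hsp90ab1 at 3306 ± 143 and the ferritin chain Fth1 at 2053 ± 116 TPM. All 15 genes of glycolysis were expressed, led by Pkm with 1177 TPM and Ldha with 1091 TPM. Linker and clustered histone genes, picked by symbol, made 0.047% of counts with 6 of 69 expressed. They were led by the linker histone H1f0 at 413, 392 and 449 CPM. The others of these 69 genes did not reach 1 CPM in all 3 tumors. Histone variant genes under other symbols were not part of this class.

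Several genes that are abundant in most cells were low in the table, and in each case a near-identical copy was high. Gapdh, an enzyme of glycolysis, had 341, 476 and 303 counts, or 22.1 CPM on average. GENCODE M21 transcripts hold 70 other genes that match its coding sequence over at least 80% of its length at 95% identity or more. Those copies had 715 CPM together, 678 CPM of them in the pseudogene Gm13394. Gapdh ranked 8121 on its own and would rank 109 with its copies. Ppia, the prolyl isomerase cyclophilin A, had 17.8 CPM against 556 CPM for Gm10123, and the ribosomal gene Rpl26 had 7.65 CPM against 847 CPM for Gm15772. The same held for Rps18 with 20.3 CPM and its copy Rps18-ps6 with 1329 CPM. In 33 of the 86 ribosomal protein genes a single copy had more counts than the gene itself, with a median of 27.6 CPM for these genes and 218 CPM for their highest copies.

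Processed pseudogenes took 2.07 ± 0.12% of counts but 11.0% of TPM, and 25 of the 100 highest genes per length were pseudogenes. How reads that match several places were counted is not given in the sources used here, so the counts of a gene and of its copy cannot be told apart. Among mitochondrial genes, mt-Co2, mt-Co3 and mt-Atp6 had 193, 83.7 and 55.1 TPM against 20892 TPM for mt-Co1. The first 3 each have at least 1 near-identical nuclear copy in the annotation, and so does mt-Co1, whose copy had 1.37 CPM. Together with their copies mt-Co2, mt-Co3 and mt-Atp6 had 62.8, 41.6 and 33.4 CPM, still far below the 10883 CPM of mt-Co1.

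The label calls the cells colon carcinoma, and the genes that define colonic epithelium were mostly absent. Of 33 colon and epithelial genes, 8 were expressed, 19 had counts below the limit and 6 had 0 counts in all 3 tumors. The 6 were the intestinal transcription factors Cdx2 and Hnf4a, the enterocyte genes Fabp1, Car1 and Slc26a3, and the tight-junction gene Cldn3. Epcam, the epithelial adhesion molecule used to sort carcinoma cells, had 5, 4 and 1 counts, and the stem-cell receptor gene Lgr5 had 1, 0 and 1. Muc2, the goblet-cell mucin, had 2, 2 and 1 counts, Vil1, a microvillus protein, 1, 1 and 5, and Cdx1 0, 0 and 1. By these genes alone the tumors would not be called colonic, but the intestinal genes Krt20 and Cdh17 were among the 8 expressed. The tumors are named here by their cell line.

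Krt20 was the highest gene of this list, with 2791, 2688 and 2781 counts and 251 ± 17 TPM, close in all 3 tumors. Tjp1, a junction scaffold that many cell types use, had 90.1 ± 5.8 TPM, and Ceacam1, an adhesion molecule also found on leukocytes and endothelium, 34.2 ± 9.2 TPM. Krt18 had 154, 184 and 141 counts, Lgals4 63, 96 and 65, Cdh1, which encodes E-cadherin, 33, 40 and 43, and the intestinal cadherin gene Cdh17 27, 31 and 27. Krt8, the usual partner of Krt18, had 17, 19 and 211 counts, so that tumor 3 alone stood apart. The other members of the list, Ascl2, Tff3, Krt19, Guca2a, Esrp2, Grhl2, Krt7, Gpa33, Ocln, Muc13, Cldn4, Cldn7, Elf3 and Esrp1, had at most 9 counts in any tumor.

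All 23 mesenchymal genes were expressed. Besides Lgals1 and Vim they were led by the calcium-binding protein gene S100a6 with 3021 ± 443 TPM and fibronectin, Fn1, with 737 ± 128 TPM. The receptor tyrosine kinase gene Axl had 681 TPM, the chromatin protein gene Hmga2 203 TPM, and the transcription factor genes Snai1, Snai2, Twist1, Twist2, Zeb1 and Zeb2 were all in the expressed set. N-cadherin, Cdh2, exceeded E-cadherin per length by 17.9, 18.7 and 15.3 times in tumors 1, 2 and 3. These genes are also used by fibroblasts, and the part of host cells in them was not tested.

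**Figure D2:**
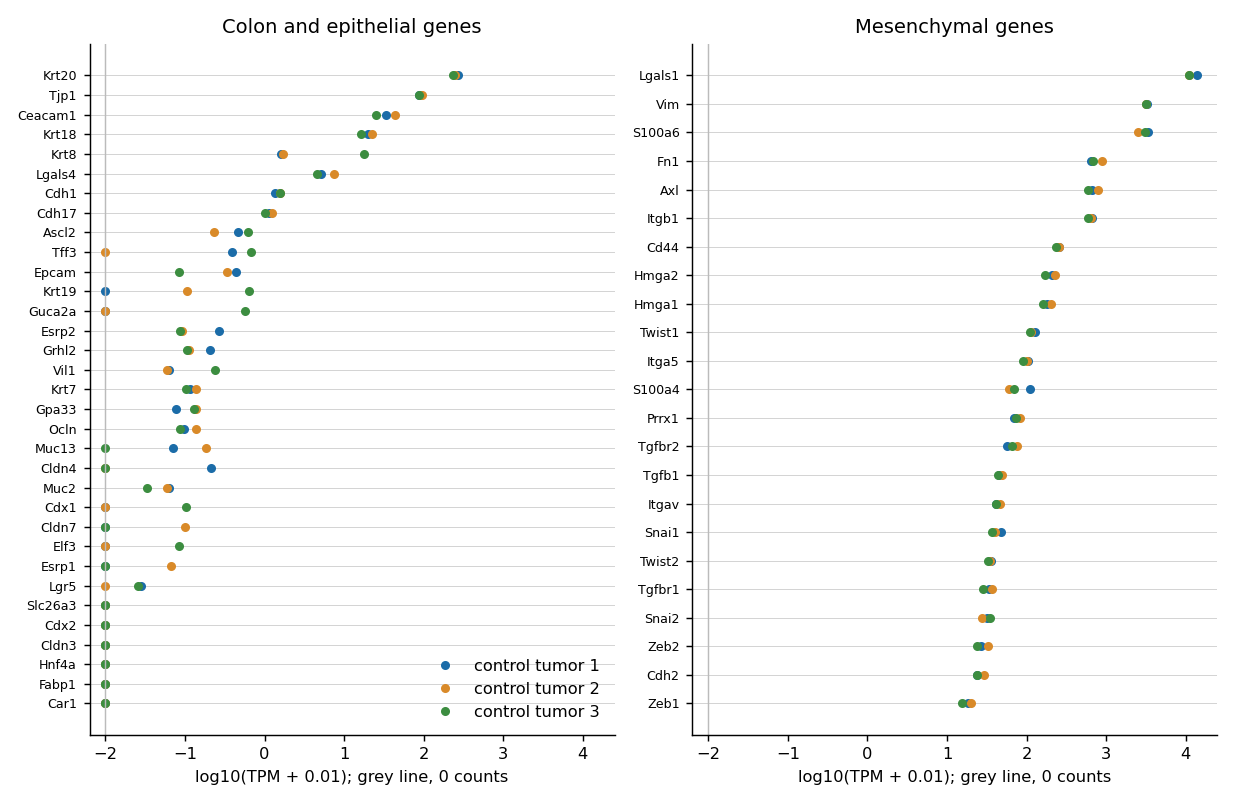
Level of each gene on 2 lists in the 3 control tumors, as log10 of TPM plus 0.01, with a grey line at 0 counts. Of 33 colon and epithelial genes 8 were expressed and 6 lay on the line in all tumors, while all 23 mesenchymal genes were expressed.

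Of 22 genes that drive colon cancer, 19 were expressed, with a median coefficient of variation (CV, SD over mean) of 5.86% against 8.97% for all expressed genes. The CV falls with level, with medians of 18.1% from 1 to 10 CPM, 7.92% from 10 to 100 and 6.27% from 100 to 1000 CPM. The lists were not matched for level. Ctnnb1, the transducer of Wnt signals, was highest with 301 ± 25 TPM, followed by Trp53 with 132 ± 7.1 TPM, Myc with 108 ± 4.9 TPM and Nras with 102 ± 4.5 TPM. Smad4 had 65.8 ± 0.75 TPM, the mismatch repair gene Msh6 78.3 TPM, and the Wnt antagonist Apc 20.9 ± 3.7 TPM. Met had 44.9 TPM, Pik3ca 29.1, Arid1a 27.6, Erbb2 19.8, Fbxw7 10.3, Braf 10.1, Tcf7l2 7.16 and Egfr 1.64 TPM.
Not expressed were the neighbouring cell-cycle inhibitor genes Cdkn2a with 16, 8 and 8 counts and Cdkn2b with 14, 9 and 17, and the Wnt target Axin2 with 1, 8 and 10 counts. The highest of these values was 1.02 CPM, for Cdkn2a in tumor 1.

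Proliferation and hypoxia genes were expressed throughout. All 32 proliferation genes were in the expressed set, with a median CV of 4.57%, led by the cyclin gene Ccnd1 at 804 ± 62 TPM, Pcna at 553 ± 25 and Cdk4 at 376 ± 12 TPM. This median was the lowest of the 42 gene lists. All 20 hypoxia genes were expressed, led by Ndrg1 with 124 ± 23 TPM, the collagen hydroxylase gene P4ha1 with 90.2 ± 10.5, Vegfa with 89.3 ± 11.1 and Hif1a with 83.5 ± 5.1 TPM.

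Among the stroma genes, collagens took a smaller share of counts than the matrix glycoproteins. Of 44 collagen genes 26 were expressed, near the share of 55.0% among all protein-coding genes. Collagen genes took 0.648, 0.591 and 0.795% of counts in tumors 1, 2 and 3. Col1a2 and Col1a1, the chains of type I collagen, had 541 ± 49 and 274 TPM, Col3a1 of type III 300.4 ± 111 and Col4a1 of the basement membrane 289 TPM. Col3a1 stood at 921, 649 and 1438 CPM and Col1a1 at 556, 426 and 851 CPM, so that both were lowest in tumor 2 and highest in tumor 3. The 17 fibroblast genes summed to 4565, 3859 and 5770 CPM, a sum that these collagens are part of, and 6 of the 17 were highest in tumor 1. The small matrix proteoglycan gene Lum gave another order, with 41.4, 14.8 and 33.5 CPM.

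Other matrix genes were more even than the collagens. The 28 matrix glycoprotein and crosslinking genes, which include Spp1, Fn1, Sparc at 733 ± 73 TPM and Bgn at 178 ± 17 TPM, summed to 10666, 10571 and 10548 CPM. Of 20 proteases and inhibitors 19 were expressed, led by the inhibitor gene Timp1 with 1042 TPM and the cathepsin genes Ctsl, Ctsb and Ctsz with 742, 651 and 609 TPM. Mmp10 was the one below the limit, with 5, 4 and 11 counts. Cathepsin K and the gelatinase gene Mmp9 were highest in tumor 1, Ctsk with 39.8, 13.8 and 18.7 CPM and Mmp9 with 49.9, 18.4 and 25.1 CPM.

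All 19 endothelial genes were expressed and summed to 470, 581 and 575 CPM, with the fenestration gene Plvap at 70.2 TPM, Cdh5, which encodes VE-cadherin, at 57.8 and Pecam1 at 43.1 TPM. None of the 19 was highest in tumor 1. Of 14 pericyte and smooth muscle genes 12 were expressed, led by Mcam and Pdgfrb, and Higd1b and Cnn1 were not. Of 6 lymphatic genes Lyve1, with a mean of 10.9 CPM, and Flt4 were expressed. Prox1 had 0, 8 and 3 counts, and Ccl21a, Mmrn1 and Reln had at most 9.

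Macrophage genes made up the largest leukocyte signal. All 23 were expressed and summed to 5793, 6472 and 6666 CPM. Lyz2, lysozyme, had 4224 ± 570 TPM, Apoe 1580 TPM, the complement genes C1qa, C1qb and C1qc 1299, 978 and 559 TPM, and the protease gene Ctss 1147 TPM. Arg1, often used for macrophages of a repair type, had 186, 271 and 490 counts, and Nos2, used for a microbicidal type, 100, 251 and 178. The Arg1 to Nos2 ratio per length was 3.68, 2.14 and 5.45, lowest in tumor 2 and highest in tumor 3. The scavenger receptor gene Cd163 was lowest in tumor 2 with 15.8, 6.79 and 18.5 CPM. Of 9 monocyte genes 7 were expressed, with Plac8 at 266 TPM and Chil3 and Fcnb below the limit, and all 15 dendritic cell genes were expressed, led by Bst2 at 878 TPM and Fscn1 at 156 TPM. The median of these 15 genes was 8.80 TPM, and Bst2, which interferon induces, and Fscn1, an actin bundler, are used by other cells too.

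T cell genes were all present at low levels. The 24 genes summed to 126, 189 and 164 CPM, and none was highest in tumor 1. The receptor constant regions Trbc1, Trbc2 and Trac had 32.4, 31.9 and 13.1 TPM. Cd8a had 190, 354 and 219 counts and Cd4 113, 170 and 221, and the Cd8a to Cd4 ratio per length was 1.86, 2.31 and 1.10. The regulatory T cell factor gene Foxp3 had 31, 51 and 52 counts and Pdcd1, which encodes PD-1, 104, 174 and 124. Macrophage genes stood above T cell genes per length, with list medians of 147 and 6.14 TPM. The C1q genes, each above the median of the macrophage list, exceeded the Cd3 genes by 131, 112 and 115 times.

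Of 20 natural killer and cytotoxic genes 14 were expressed, and the list summed to 113, 166 and 172 CPM. Gzma had 58.1 TPM, Ccl5 47.1, Nkg7 45.03 and Gzmb 44.4 TPM, and none of the 14 was highest in tumor 1. Ifng itself had 7, 13 and 23 counts and was not expressed by the limit, nor were Gzmk, Klrb1c, Gzmd, Gzme and Gzmf. Most B cell genes did not reach the limit. Of 13 genes 5 were expressed, Ighm highest with 925, 1589 and 1033 counts, while Ms4a1, which encodes CD20, had 11, 40 and 26. Of the plasma cell genes Igkc had 112, 445 and 246 counts and Ighg1 146, 13 and 20.

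Mast cell genes exceeded T cell genes in summed CPM in each tumor. All 9 were expressed and summed to 779, 647 and 510 CPM, highest in tumor 1 in 8 of 9 genes. Tpsab1, a tryptase, had 4716, 4358 and 2977 counts, and Mcpt4, a chymase, 1775, 1545 and 1170. Neutrophil genes were weak. Of 17 only S100a9, Csf3r, Hdc, Il1r2 and Trem1 were expressed, S100a8 had 63, 13 and 21 counts, and Ngp, a granule gene of immature neutrophils, had 45 counts in tumor 1 and 0 in the others.

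**Figure D3:**
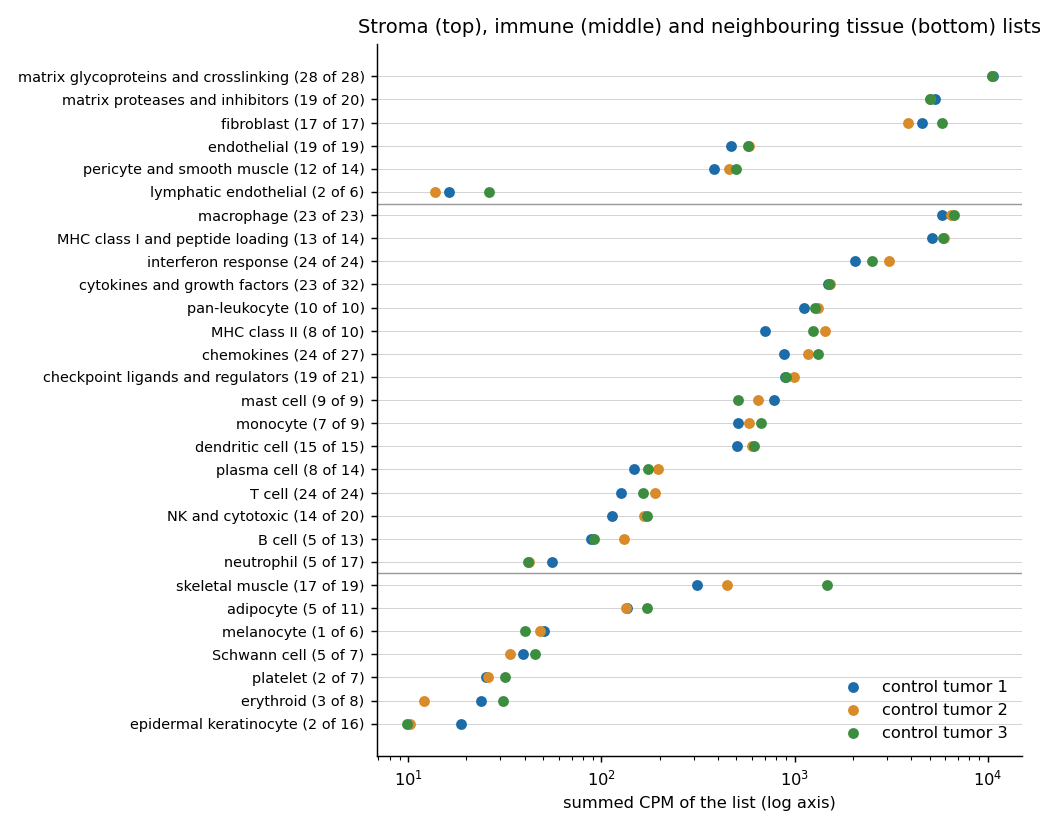
Summed CPM on a log axis of each stroma, immune and neighbouring tissue list, with 1 point per control tumor and, in brackets, the number of expressed genes of all genes on the list. Skeletal muscle genes lay at 311, 449 and 1474 CPM, the widest range of the lists shown, and macrophage genes at 5793 to 6666 CPM.

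Antigen presentation genes were abundant. Of 14 genes of MHC class I and peptide loading 13 were expressed, at 5166, 5968 and 5874 CPM in sum, and none of the 13 was highest in tumor 1. B2m was followed by the heavy chain genes H2-D1 with 1807 TPM and H2-Q4 with 376 TPM, and the loading factor gene Tapbp had 305 TPM. H2-K1 had 152 TPM. H2-Q7 was the one below the limit, with 346, 4 and 468 counts, and the related H2-Q5 had 7.23, 19.7 and 6.78 CPM, so that tumor 2 stood apart in both genes and in opposite directions. Class I genes are near-copies of one another and differ between strains, and how their reads were assigned is not given in the sources used here.

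MHC class II genes were the immune list with the widest range in summed CPM, while by gene the plasma cell list was wider, with a median CV of 42.5% against 31.8%. The 10 genes summed to 702, 1437 and 1243 CPM, a ratio of 2.05 between the highest and the lowest tumor. Cd74, the invariant chain, had 411, 871 and 732 CPM, H2-Eb1 144, 319 and 271 CPM, and Ciita, the transactivator of these genes, 17.8, 41.2 and 29.6 CPM. Tumor 1 was lowest in 7 of the 8 expressed genes, H2-DMb2 having 14.1, 6.79 and 17.6 CPM. H2-Oa and H2-Ob were not expressed.

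Interferon response genes were on in all 3 tumors, without any interferon given. All 24 were expressed and summed to 2058, 3090 and 2525 CPM, with tumor 2 highest in 17, against 41.0% of all genes. Gbp2, a guanylate-binding protein, had 212, 384 and 292 CPM, the chemokine gene Cxcl9 119.6, 296 and 209 CPM, and Irf1, the transcription factor, 129.7 ± 32.9 TPM. Isg15 differed less, with 63.8, 61.5 and 59.2 CPM, highest in tumor 1. Ifng, like the list, was lowest in tumor 1, but with 7, 13 and 23 raw counts its order among tumors is uncertain. Whether Ifng and the list are related was not tested.

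Of 21 checkpoint genes 19 were expressed, led by Lgals9 with 179.5 TPM and the don't-eat-me signal gene Cd47 with 139.8 TPM. Cd274, which encodes PD-L1, had 571, 1195 and 848 counts. Vtcn1, which encodes the inhibitory ligand B7H4, had 5, 11 and 1 counts, or 0.317, 0.633 and 0.0569 CPM, and was not expressed by the limit, and Tnfsf4 had 5, 5 and 6 counts. Of 27 chemokines 24 were expressed and tumor 3 was highest in 17, against 28.2% of all genes. The monocyte attractants led, Ccl8 with 1397 TPM, Ccl12 with 355, Ccl2 with 276 and Ccl7 with 230 TPM. Ccl6 had 39.4, 24.2 and 117 CPM. Ppbp, Cxcl3 and Ccl20 were not expressed. Of 32 cytokine and growth factor genes 23 were expressed, led by Mif with 566 TPM and Grn with 380 TPM. Of those below the limit Il6 had 14, 16 and 35 counts, Ifnb1 0, 1 and 1, and Csf3 0, 0 and 5.

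The spread between the 3 tumors was small for most genes and exceeded counting error for most. The median CV was 8.97%, with quartiles of 5.29 and 15.1%, against 4.23% that counting alone gives at these depths, and 10919 of 13467 genes had a CV above their own counting value. The biological coefficient of variation, estimated across all expressed genes by edgeR, was 12.3%. The highest tumor reached 2 times the lowest or more in 506 genes, or 3.76%, of which 389 had a mean under 10 CPM. Among the 10111 genes with a mean of 10 CPM or more there were 117 such genes, or 1.16%, and 26 at 4 times or more. Of the 117 genes tumor 3 was highest in 55, tumor 2 in 38 and tumor 1 in 24, against 28.2, 41.0 and 30.8% of all 10111 genes. Among genes above 100 CPM the most even were Add1, with 299.4, 299.7 and 299.0 CPM, and Mef2d, with 113, 112 and 112 CPM, a match closer than counting error that some of so many genes will show.

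**Figure D4:**
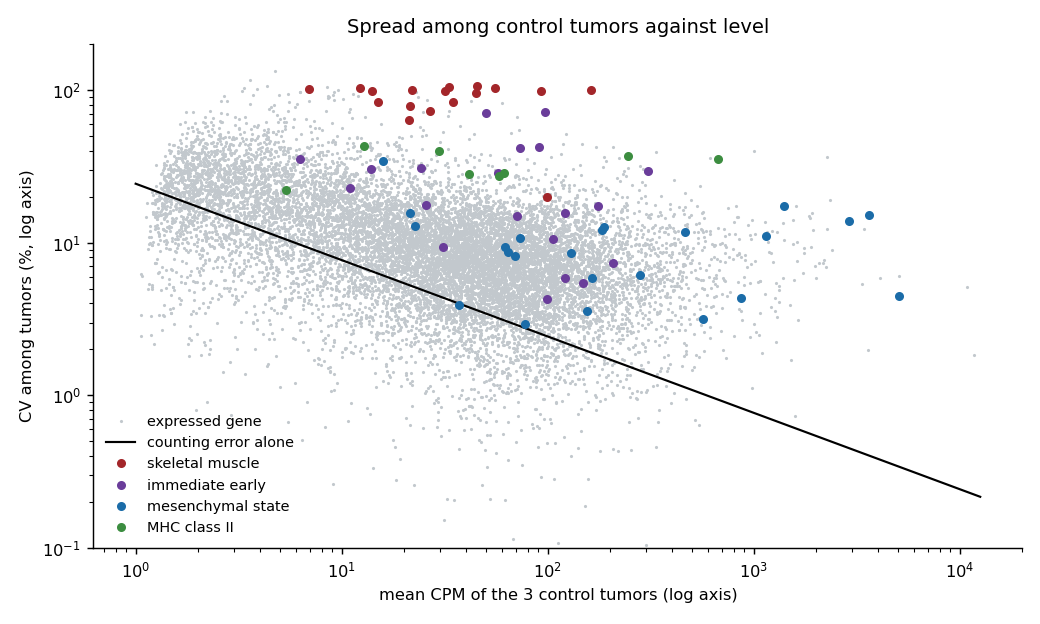
CV among the 3 control tumors against mean CPM of each expressed gene, both on log axes, with the line for counting error at the mean depth. The expressed genes of the skeletal muscle list lie between 63.7 and 105% except Eno3 at 19.9%, and mesenchymal genes lie among the bulk of genes.

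Skeletal muscle genes differed most. Of 19 genes 17 were expressed, and they summed to 311 CPM in tumor 1, 449 in tumor 2 and 1474 in tumor 3, a ratio of 4.74. Acta1, the actin of skeletal muscle, had 865, 1459 and 6081 counts, Ckm, the muscle creatine kinase, 222, 377 and 1769, and Mylpf, a myosin light chain, 298, 375 and 1654. Tumor 3 was highest in 17 of the 17 genes, at 2 times the lowest or more in 16, and 15 of the 117 genes above were on this list. Eno3, the muscle enolase, had 91.4, 85.4 and 122 CPM. Fast-fiber genes such as Myh4, at 25.9, 55.5 and 197 CPM, had the same order as Ttn and Neb, the giant filament genes of all striated muscle. How much body-wall muscle each tumor sample held was not tested.

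Immediate early genes, which answer to growth factors, stress and tissue handling within minutes, had their highest sum in tumor 3 as well. All 20 were expressed and summed to 1730, 1541 and 2245 CPM, with tumor 3 highest in 16, against 28.2% of all genes. Fos had 70.6, 44.0 and 176 CPM, Fosb 39.9, 21.1 and 90.2 CPM and Egr1 264, 248 and 412 CPM, while Fosl1 was highest in tumor 1, with 129, 115 and 119 CPM. Tumor 2 was the lowest for Fos and Fosb. The muscle and immediate early lists were both highest in tumor 3, and with 3 tumors no relation between them was tested.

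**Figure D5:**
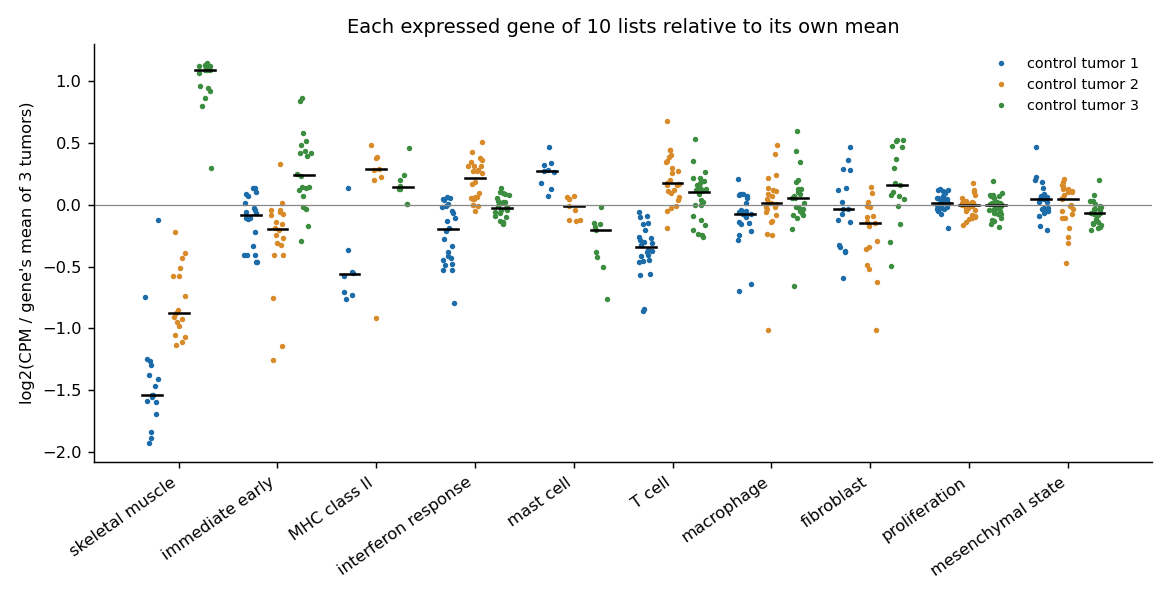
Each expressed gene of 10 lists as log2 of its CPM over its own mean of the 3 control tumors, with black bars for medians. Muscle genes were above their mean in tumor 3 and below it in tumors 1 and 2, MHC class II genes were mostly below it in tumor 1, and proliferation genes stayed near 0.

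The genes named next are the 5 furthest above and the 5 furthest below both other tumors in each tumor. Tumor 1 was highest for Car6, Ctsk, Gm8942, Eef1a1-ps1 and Mmp9, and lowest for the matrix genes Cilp, with 10.3, 31.4 and 32.1 CPM, and Thbs4, with 9.65, 23.9 and 23.1 CPM, and for Igfbp5, Gm3362 and Xirp2. Tumor 2 was highest for H2-Q5, Plet1 with 25.2, 57.8 and 15.7 CPM, Dnase1l3, the endothelial nitric oxide synthase gene Nos3 with 14.1, 29.6 and 12.98 CPM, and Igkc. It was lowest for Sfrp2 with 9.65, 3.39 and 19.8 CPM, Lyve1 with 9.45, 3.97 and 19.3 CPM, Cd163, Lum and the hemoglobin gene Hbb-bs. Tumor 3 was highest for the muscle genes Pvalb, Tnnc2, Ckm, Mylpf and Acta1. Of its 55 genes among the 117, 40 were not on the muscle list. That list is not complete, and the 40 include other genes that serve muscle, such as Mybpc2 and Ryr1. Tumor 3 was lowest for Dmp1, the circadian repressor gene Nr1d1 with 17.9, 18.8 and 8.43 CPM, Anks1b, Gm19557 and Atg9b with 119, 130.1 and 60.5 CPM.

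Other tissues next to the tumor left little RNA. Of 16 epidermal keratinocyte genes Krt10 and Trp63 were expressed, and Krt14 and Krt5 had 62 and 48 counts in tumor 1 against at most 8 and 2 in the others. Of 11 adipocyte genes 5 were expressed, Fabp4 highest, which capillaries and macrophages use too, while Adipoq had 29, 8 and 17 counts. Of 8 erythroid genes 3 were expressed, and the list summed to 23.7, 12.02 and 31.1 CPM, a ratio of 2.59. Hbb-bs had 254, 132 and 367 counts and Hba-a1 3.17, 2.01 and 5.01 CPM, each lowest in tumor 2. Platelet, Schwann cell and melanocyte lists had 2 of 7, 5 of 7 and 1 of 6 genes expressed. The melanocyte gene was Mitf, which mast cells and macrophages also use, and the pigment enzyme gene Tyr had 0 counts.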

How the data were processed

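RNA of 6 subcutaneous CT26.WT tumors was sequenced, and the 3 control columns were used here. The authors deposited whole-number read counts per gene, not normalized. Per the submitters' processing notes HISAT2 and the mouse build mm10 were used, and the counting tool, its treatment of shared reads and of strand, and the annotation release are not given in the sources used here. CPM were computed on column totals, and TPM on union exon lengths of GENCODE M21, which held 99.5% of identifiers and lacked 260. A gene was expressed at 1 CPM or more in all 3 tumors. The biological coefficient of variation came from an intercept-only fit of edgeR 4.0.16 in R 4.3.3 with TMM factors, and DESeq2 1.42.0 gave alternative size factors. The fit was tested on simulated counts. Coding sequences were aligned by BLAST+ 2.17.0 to M21 transcripts for near-identical copies. With 1 group there was no test and no p-value. SDs and floors of 3 counts cover the spread of 3 samples and counting error only.

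The members and the 42 gene lists, written from general knowledge, were chosen with earlier results of these data known. Named genes were the 20 highest by mean CPM and by mean TPM, up to 4 of each list by TPM with up to 6 genes that were not expressed, every colon, epithelial and driver gene, the 5 highest and 5 lowest per tumor against the nearer of the other tumors among genes with a mean of 10 CPM or more, and 3 genes on either side of the limit. Some genes that this rule names are not reported here. Others, such as Xist, Vtcn1, Gapdh and Ppia, were named after their values were seen. Alternatives were other scalings, limits and lengths, and leaving out each tumor. The alternative without muscle genes was chosen after seeing the data.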

Additional observations from a re-analysis of the deposited data

How the results depend on the processing

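The number of expressed genes was 13467 with TMM or DESeq2 scaling and 12371 to 14598 under the other limits and scales, and 13615 to 13681 with 1 tumor left out. Without mitochondrially encoded genes, the 10 most abundant genes took 3.87% of counts. As a share of TPM the 10 genes took 8.09%, mitochondrially encoded genes 5.41%, ribosomal protein genes 8.02%, collagens 0.231% and processed pseudogenes 11.0%. With 1 tumor left out these classes took 5.34 to 5.41%, 2.30 to 2.48%, 3.84 to 4.19%, 0.620 to 0.722% and 2.01 to 2.14% of counts. The longest transcript in place of the union of exons kept 82 of the 100 highest genes per length.
Genes at 2 times or more between tumors numbered 506, and 117 with a mean of 10 CPM or more. With only 2 tumors left to compare they were 230 to 281, and 57 to 71, fewest without tumor 3. Without the genes of the skeletal muscle list they were 490 and 102, and muscle genes outside that list were kept. The biological coefficient of variation was 10.9% for genes with a mean of 10 CPM or more, 13.6% with no filter beyond 1 count, and 10.9 to 13.01% with 1 tumor left out, lowest without tumor 3. Of the 42 lists 3 (skeletal muscle, erythroid, MHC class II) reached a ratio of 2 between tumors, and 1 (skeletal muscle) did as a mean of log2(CPM + 0.5). With 1 tumor left out 1 to 2 lists did: skeletal muscle and erythroid without tumor 1, skeletal muscle without tumor 2, MHC class II without tumor 3. For the 10 lists with a ratio of 1.5 or more, the tumor highest by sum stayed above the tumor lowest by sum under each alternative. The place of the third tumor was not compared. For lymphatic endothelial genes the log2 difference of that pair fell from 0.915 by sum to 0.031 as a mean of log2(CPM + 0.5). No paired analysis was possible because the results come from no test. With 3 tumors, differences under the SDs given were not detectable.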

Other observations

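Outside the expressed set, 17 genes reached 2 CPM in 1 tumor and stood at a 20th of that or less in another. They were sought after the data were seen. Besides Xist, H2-Q7, Krt14, Krt5 and Ngp, they held genes of the hair follicle. The inner root sheath keratins Krt71 and Krt25 had 62, 71 and 2 counts and 54, 28 and 0 counts in tumors 1, 2 and 3, and Tchh, trichohyalin of the same layer, had 62, 68 and 2. Tumors 1 and 2 had counts of these hair follicle genes where tumor 3 had almost none, a contrast that the search itself asked for. The skeletal muscle list had its highest sum in tumor 3. Jsrp1, Klhl31 and Fsd2, which serve muscle, had 2, 15 and 46 counts, 0, 14 and 41, and 0, 4 and 36. How much skin or muscle was taken with each tumor was not tested.

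Single genes of other kinds were on in 1 or 2 tumors. Retnla, a macrophage gene driven by interleukin 4, had 24, 4 and 121 counts. Hydin, a gene of motile cilia, had 130, 19 and 0, and Grin3a, a glutamate receptor gene, 8, 0 and 56. The immunoglobulin segment Igkv1-110 had 3, 65 and 2 counts, and the pseudogene Gm6741 1, 56 and 64. The last, like Xist, had 1 count in tumor 1 and was present in the other two.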
